A study of Mus musculus with 45 samples.

Results

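The families of miR-130 and miR-301 and of miR-148 and miR-152 were followed in the alveolar macrophage (AM) miRNome of mice that had breathed filtered air (FA) or ozone (O3). The 7 members described are every mature miRNA of a fixed list of names: mmu-mir-130a-3p, mmu-mir-130b-3p, mmu-mir-130b-5p, mmu-mir-301a-3p, mmu-mir-148a-3p, mmu-mir-148b-3p and mmu-mir-152-3p. All 7 were listed in at least 1 of the 6 deposited tables, among 476 listed miRNAs in all. The members were chosen by name and not by a measured value, although earlier results of these data were known at that time.

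AM were taken by bronchoalveolar lavage from 45 mice, 24 females and 21 males, all 12 weeks old. Exposure to FA or to 2 ppm O3 lasted 3 h, and 18 h of recovery followed. SP-A2 mice carried the human SP-A2 variant 1A0, co-ex mice carried both human SP-A1 (6A2) and SP-A2 (1A0), and KO mice carried no SP-A gene. All 3 genotypes are labelled C57BL/6, and the methods place the human genes on C57BL/6J mice without mouse SP-A, so the human proteins were the only SP-A in any animal, and the females were synchronized for the estrous cycle. The groups held 4 mice each, except the SP-A2 males (3 for each exposure) and the O3 group of the co-ex males (3). Each combination of genotype and sex has its own table, and the factors that divide the reads averaged 1.00 over the mice of each table. How those factors were computed is not given in the sources used here. Levels are thus relative to the table, so that genotype, sex and any batch by table cannot be told apart when levels are set across tables. The labels name each mouse as a sample and give no other source of replication.

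A mature miRNA is loaded into an Argonaute protein and pairs with target transcripts mainly through its seed, bases 2 to 8 from the 5′ end. The miR-130 family, with miR-301a, is known for targeting the transcript of PPAR-gamma, a transcription factor of alveolar macrophage differentiation and lipid handling. The miR-148 family, with miR-152, is known for targeting the DNA methyltransferase DNMT1 and, in dendritic cells, CaMKII. A precursor hairpin gives a 5p and a 3p strand, and usually 1 of them is kept while the other is degraded.

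The mature sequences are shown because the seed groups the members and because members of a family differ by few bases. All 7 names matched RefSeq entries on GRCm38.p6, and the capitals mark the seed.
mmu-mir-130a-3p: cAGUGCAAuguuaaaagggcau
mmu-mir-130b-3p: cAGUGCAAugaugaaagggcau
mmu-mir-301a-3p: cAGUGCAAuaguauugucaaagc
mmu-mir-130b-5p: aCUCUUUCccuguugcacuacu
mmu-mir-148a-3p: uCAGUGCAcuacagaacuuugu
mmu-mir-148b-3p: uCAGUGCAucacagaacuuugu
mmu-mir-152-3p: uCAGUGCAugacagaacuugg

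These sequences form 3 seed groups. The 3 members with the seed AGUGCAA are miR-130a-3p, miR-130b-3p and miR-301a-3p. The 3 members with the seed CAGUGCA are miR-148a-3p, miR-148b-3p and miR-152-3p. The opposite strand of the miR-130b hairpin, miR-130b-5p, has the seed CUCUUUC and shares it with no other member. The 7 letters CAGUGCA stand at bases 1 to 7 of the 3 members of the first group and at bases 2 to 8 of the 3 members of the second, so the families carry the same letters shifted by 1 base.

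Within a family the differences lie outside the seed. Counted from the 5′ end, miR-130a-3p and miR-130b-3p agree at 20 of 22 bases and differ by U11A and A13G, with the base of miR-130a-3p first. For miR-148a-3p against miR-148b-3p the differences are C9U and U10C, again 20 of 22 bases being shared. Over the 21 bases of miR-152-3p, miR-148b-3p differs from it by C10G and U20G. A short read that carries an error at such a base could be counted for the other member, and how the deposited counts treated such reads is not given in the sources used here. By contrast, miR-301a-3p has the base of miR-130a-3p at 12 of 22 bases.

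On GRCm38.p6, miR-130a-3p is at chr2:84741116-84741137 on the minus strand and miR-148a-3p at chr6:51269829-51269850 on the minus strand, and in GENCODE M21 neither lies in another gene. Both strands of miR-130b, at chr16:17124071-17124092 (3p) and chr16:17124109-17124130 (5p), are on the minus strand in an intron of 2610318N02Rik. The other 3 lie in introns of protein-coding genes on the plus strand: miR-301a-3p in Ska2 (chr11:87113054-87113076), miR-152-3p in Copz2 (chr11:96850439-96850459) and miR-148b-3p in Copz1 (chr15:103285185-103285206). Each of the 4 host genes is on the same strand as its miRNA.

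The values below are normalized values, the reads on a miRNA divided by a factor of the mouse within its table. They are low for most members, and whole reads could be recovered from them. The reads on all listed miRNAs were between 137965 and 2884013 per mouse (median 766213). The co-ex male FA replicate 1 (137965 reads), SP-A2 female O3 replicate 1 (162130) and KO male O3 replicate 4 (180625) held the fewest. The blood cell miRNAs miR-142a-3p, miR-142a-5p and miR-223-3p were listed in every table, and no miRNA marks AM alone. miRNAs known from other cells were also present and moved with exposure in some tables, and their part in the values of the members was not tested. The summed value of the mesenchymal list was higher in every O3 mouse than in every FA mouse in 4 tables: SP-A2 males (4230 to 6153 after FA and 10014 to 18505 after O3, 11 of 12 miRNAs listed), SP-A2 females (1510 to 3974 and 7837 to 31488, 11 of 12), KO males (891 to 6842 and 12076 to 57856, 9 of 12) and co-ex females (646 to 3815 and 6819 to 14935, 8 of 12). In KO females and co-ex males these ranges overlapped. The erythroid sum of KO females fell without overlap (131 to 513 after FA and 9.84 to 36.0 after O3, 2 of 4 miRNAs listed). The epithelial sum did not overlap in SP-A2 males (6386 to 9277 and 11666 to 12893, 13 of 14 listed) and co-ex females (839 to 5893 and 6506 to 23903, 11 of 14), nor did the endothelial sum in SP-A2 males (3.61 to 10.6 and 79.2 to 359, 2 of 2). Every listed miRNA has reads in no fewer than 3 mice of its table for the males of SP-A2 and co-ex, and no fewer than 4 elsewhere.

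Only 2 members were listed in all 6 tables, miR-130b-5p and miR-148b-3p. The table of SP-A2 males listed all 7 members, that of SP-A2 females 6, those of KO females and co-ex females 5 each, that of KO males 4 and that of co-ex males 2. Of the mice in whose tables a member was listed, miR-148b-3p was above 0 in 45 of 45, miR-130b-5p in 40 of 45, miR-148a-3p in 30 of 38, miR-152-3p in 29 of 38, miR-130b-3p in 17 of 22, miR-130a-3p in 14 of 22 and miR-301a-3p in 4 of 6. A value of 0 in a mouse allows up to 3 reads, and this limit covers counting error only. In bulk AM, fewer cells with a miRNA and less of it per cell cannot be told apart.

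**Figure D1:**
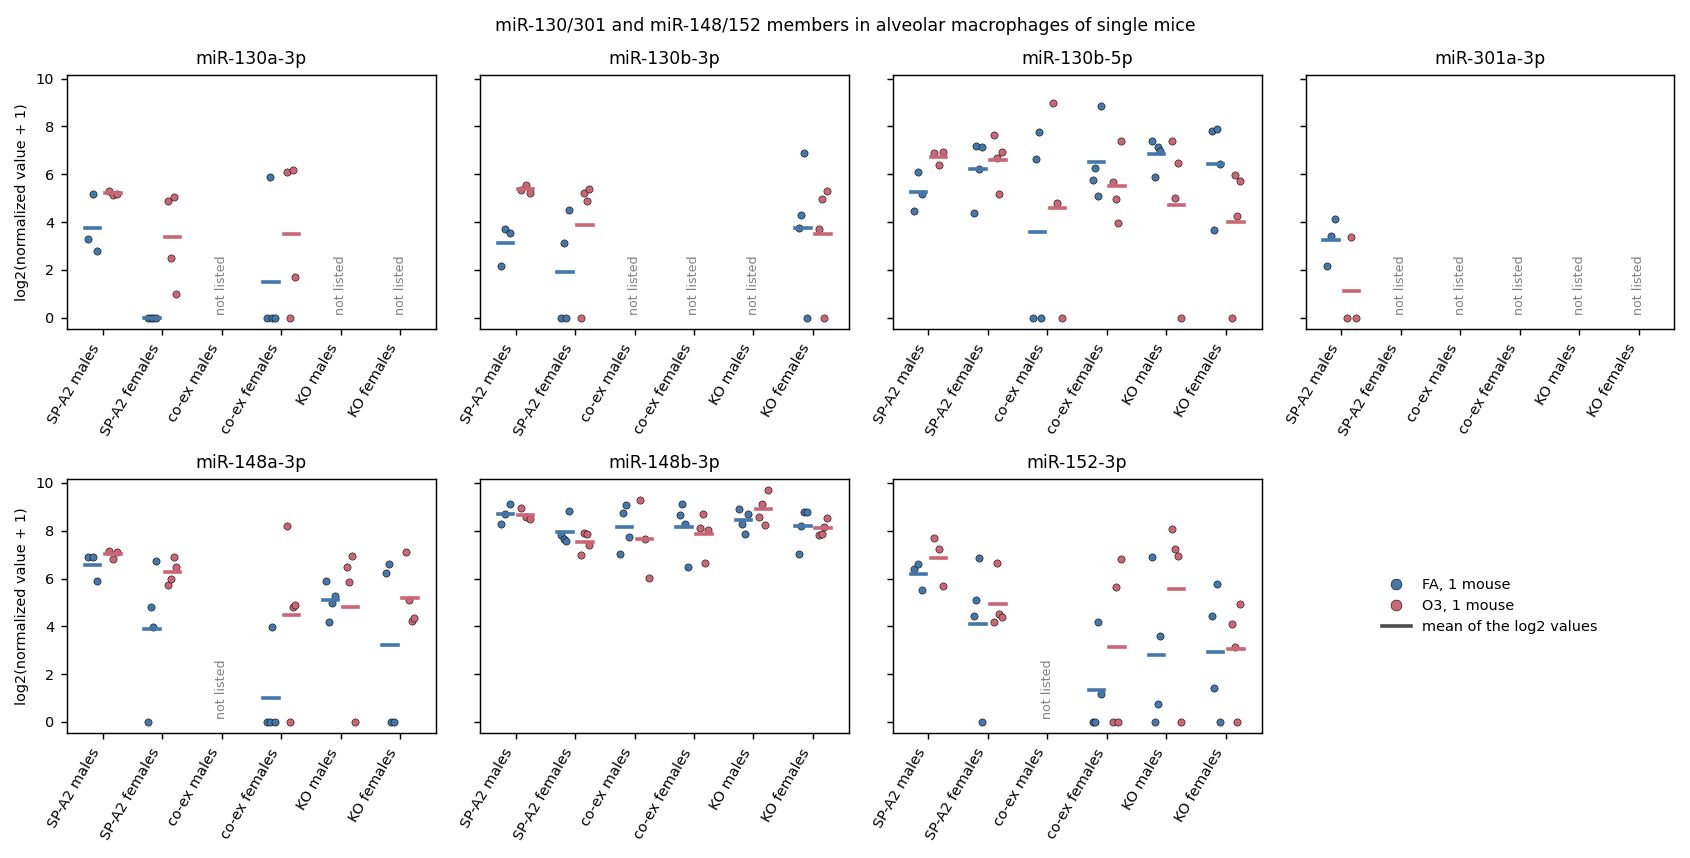
Each panel is 1 member, the horizontal axis gives the 6 tables and the vertical axis the log2(normalized value + 1) of each mouse, FA in blue and O3 in red, with a bar at the mean of each group. miR-148b-3p was above 0 in 45 of 45 mice, while the other members fall to 0 in some mice, for example miR-130a-3p in 8 of 22.

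Among all 29 combinations of a member and a table, limma called none for O3 against FA at an FDR of 0.1 (Benjamini-Hochberg over the whole table), and the smallest adjusted p was 0.228. Unadjusted, 2 of the 29 had p below 0.05, miR-130b-3p in SP-A2 males and miR-130a-3p in SP-A2 females. Of all miRNAs in these tables, 17.6% and 12.3% had such a p. miR-130a-3p, which also gave the smallest adjusted p, entered the table of SP-A2 females only through its O3 mice, so the listing fixed its direction. On recovered reads, edgeR called 0 and DESeq2 called 0, with 6 adjusted p left undefined by DESeq2. DESeq2 called more of all miRNAs than limma in each table, 12.5% for KO males, 0.697% for KO females, 12.1% for SP-A2 males, 6.97% for SP-A2 females, 2.14% for co-ex males and 4.83% for co-ex females, and edgeR called 4.88%, 0%, 1.12%, 0.536%, 0% and 0% in the same order. The fitted difference was above 0 in 18 and below 0 in 11, with a median of 0.46 on the log2 scale. The share of all listed miRNAs that limma called was 5.18% for KO males, 0% for KO females, 0.670% for SP-A2 males, 1.07% for SP-A2 females, 0% for co-ex males and 1.38% for co-ex females. The median difference over all miRNAs was -0.29, 0.45, 0.17, 0.18, 0.64 and 0.31 in the same order. In the 2 tables with no call, KO females and co-ex males, 22 and 8 miRNAs had an unadjusted p below 0.05, edgeR called 0 in both, and DESeq2 called 2 and 5. Calls by limma were rare in these tables for all miRNAs, and its 95% intervals for the members were between 1.85 and 14.3 log2 units wide.

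miR-130a-3p, the member of the family most similar to miR-130b-3p, was listed in 3 tables, and its fitted difference was above 0 in each. In SP-A2 females the listing fixed that direction. In SP-A2 females it was 0 in all 4 FA mice and 28.7, 4.66, 32.2 and 1.01 in the O3 mice, from 5, 10, 34 and 1 reads. The 4 mice with reads were the O3 mice, so the miRNA entered this table only through them and no overlap could occur. Against a floor of 3 reads in each FA mouse, its mean after O3 (16.6) was at least 4.24-fold higher, although the O3 mouse with 1 read was itself under that floor. The fitted difference was 3.36 ± 1.13 (SE, n = 4 and 4, limma adjusted p = 0.228).

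In SP-A2 males, miR-130a-3p was 8.72, 34.9 and 5.87 after FA and 38.1, 34.3 and 34.9 after O3. A single FA mouse reached the level of the O3 mice, so the groups overlapped (log2 difference 1.46 ± 1.00, limma adjusted p = 0.486). In co-ex females it was 58.6 in 1 FA mouse and 0 in the other 3. After O3 it was 67.3, 0, 71.1 and 2.21 in the same table, so that high and zero values occurred in both groups (2.01 ± 1.91, limma adjusted p = 0.759). Reads were present there in 3 O3 mice and 1 FA mouse, just the minimum of 4 mice for being listed. miR-130a-3p was not listed for co-ex males or for KO mice.

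For both SP-A2 tables together (14 mice, 354 miRNAs), the averaged difference of miR-130a-3p was 2.41 ± 0.80 (95% interval 0.72 to 4.10, limma adjusted p = 0.109), just outside the threshold. The females entered this average only through their O3 mice, the 4 with reads, so the listing fixed the direction of the female part, and the average and its calls under other settings are a description. The males alone gave the 1.46 ± 1.00 stated above. Of the 354 miRNAs, 5.08% were called in this fit and 0 of the 6 members tested, and the median difference over all of them was 0.20. The call depended on the method: edgeR (adjusted p = 0.0665) and DESeq2 (adjusted p = 0.0142) on recovered reads called miR-130a-3p, where they called 5.93% and 12.7% of all miRNAs, as did limma with a pseudocount of 0.1 (adjusted p = 0.0916). Leaving out SP-A2 female O3 replicate 2 (adjusted p = 0.0810) or replicate 4 (adjusted p = 0.0513) also gave a call in limma. This fit was added after the data were seen. In SP-A2 males the reads on listed miRNAs were between 463196 and 737471 in the FA mice and between 823908 and 1390373 in the O3 mice, and the sums for other cells given above moved with exposure as well. The part of depth in the result was not tested.

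The difference between the sexes in the response of miR-130a-3p within SP-A2 was -1.91 ± 1.60, male minus female (95% interval -5.29 to 1.48, limma adjusted p = 0.881). No member was called for this contrast among the 6 tested, where 0.282% of all miRNAs were.

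miR-130b-3p differs from miR-130a-3p at 2 bases, and it was listed in both SP-A2 tables and in KO females. In SP-A2 males it was 3.49, 12.0 and 10.6 after FA and 39.6, 46 and 35.8 after O3. Every O3 mouse was above every FA mouse, and the difference of 2.23 ± 0.97 had an unadjusted p of 0.0451 and did not pass the test over the table (limma adjusted p = 0.266, 95% interval 0.06 to 4.41). Its FA values rest on 2, 10 and 9 reads.

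In SP-A2 females, miR-130b-3p was 0, 7.59, 0 and 21.8 after FA and 0, 35.9, 28.4 and 41.2 after O3. The O3 mouse at 0 had the fewest reads of its group, and the groups overlapped (1.97 ± 1.60, limma adjusted p = 0.676). In KO females it was 12.6, 18.6, 119 and 0 after FA and 12.0, 29.8, 0 and 38.1 after O3. These groups overlapped widely (-0.26 ± 2.06, limma adjusted p = 0.958).

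miR-130b-5p, the opposite strand of the same hairpin, was measured in all 45 mice. In SP-A2 males it was 20.9, 67.4 and 35.2 after FA and 119, 83.3 and 121 after O3. As with miR-130b-3p, the O3 mice all lay above the FA mice (1.50 ± 0.71, 95% interval -0.09 to 3.09, limma adjusted p = 0.311). These were 2 of 7 members whose groups did not overlap in SP-A2 males, a table in which 12.7% of all miRNAs had every O3 mouse above every FA mouse. Both come from 1 hairpin and 1 set of mice.

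In the other tables the groups of miR-130b-5p overlapped. In SP-A2 females it was 19.7, 145, 74.2 and 142 after FA and 201, 101, 35.0 and 122 after O3 (0.37 ± 0.85, limma adjusted p = 0.902). In co-ex males it was 0, 98.7, 217 and 0 after FA and 509, 26.6 and 0 after O3 (0.99 ± 3.34, limma adjusted p = 0.941). The 95% interval of this last difference, from -6.17 to 8.16, was the widest of all the members. In co-ex females it was 53.9, 74.9, 33.0 and 463 after FA and 50.5, 30.4, 14.6 and 167 after O3 (-0.99 ± 1.74, limma adjusted p = 0.896). A single mouse held a value far above the rest in each of the co-ex tables.

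In KO mice the fitted difference of miR-130b-5p was below 0 in both sexes without passing the test. It was 169, 58.2, 140 and 123 after FA and 167, 31.0, 87.6 and 0 after O3 in males (-2.13 ± 1.70, limma adjusted p = 0.545), and the O3 mouse at 0 was the shallow replicate 4. Without that mouse the difference was -0.56. In females it was 221, 11.8, 239 and 84.1 after FA and 0, 61.7, 17.9 and 51.5 after O3 (-2.47 ± 1.93, limma adjusted p = 0.727).

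The responses of miR-130b-5p in SP-A2 and KO mice, over both sexes, differed by 3.24 ± 1.76 (SP-A2 minus KO, 95% interval -0.32 to 6.79, unadjusted p = 0.0731, limma adjusted p = 1.00). The opposite signs in the 2 genotypes were thus not shown to be a difference between them. The share of miRNAs called in this contrast was 0%. For co-ex minus KO the difference was 2.30 ± 1.72 (limma adjusted p = 0.703, 0.971% of miRNAs called), and for SP-A2 minus co-ex it was 0.93 ± 1.79 (limma adjusted p = 0.918, 0.485% of miRNAs called). Neither miR-130b-5p nor miR-148b-3p was called in these 3 contrasts, and for miR-148b-3p the differences were -0.41 ± 0.69, -0.56 ± 0.68 and 0.16 ± 0.70.

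Between males and females, the responses of miR-130b-5p differed by 1.13 ± 2.58 in SP-A2, 1.98 ± 2.49 in co-ex, 0.33 ± 2.39 in KO and 1.15 ± 1.44 over the 3 genotypes. Those of miR-148b-3p differed by 0.40 ± 1.02, -0.21 ± 0.98, 0.56 ± 0.94 and 0.25 ± 0.56. In each of these 4 contrasts limma called neither member and 0% of the 206 miRNAs shared by all tables, with 3, 10, 18 and 4 of the 206 at an unadjusted p below 0.05. There, edgeR called 1, 0, 0 and 0, and DESeq2 called 2, 1, 0 and 0. These contrasts compare responses within tables, since levels are relative to each table.

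miR-301a-3p shares its seed with miR-130a-3p and was listed only in SP-A2 males. It was 3.49, 9.62 and 16.4 after FA and 0, 9.49 and 0 after O3, from at most 14 reads. The groups overlapped at the single O3 mouse with reads, and the difference was -2.10 ± 1.25 (limma adjusted p = 0.438). The direction was opposite to that of the other 2 members with this seed in the same mice, and a difference between the members was not tested.

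Averaged over the 6 tables, the difference of miR-130b-5p was -0.45 ± 0.72 (95% interval -1.90 to 1.00, limma adjusted p = 0.758) and that of miR-148b-3p was -0.14 ± 0.28 (-0.71 to 0.43, adjusted p = 0.812). In this fit 25.7% of the 206 miRNAs were called, with a median difference of 0.19 over all of them, and neither member was called, nor by edgeR or DESeq2. The interval of miR-148b-3p was the narrower one, and it covers averaged differences from -0.71 to 0.43 on the log2 scale.

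**Figure D2:**
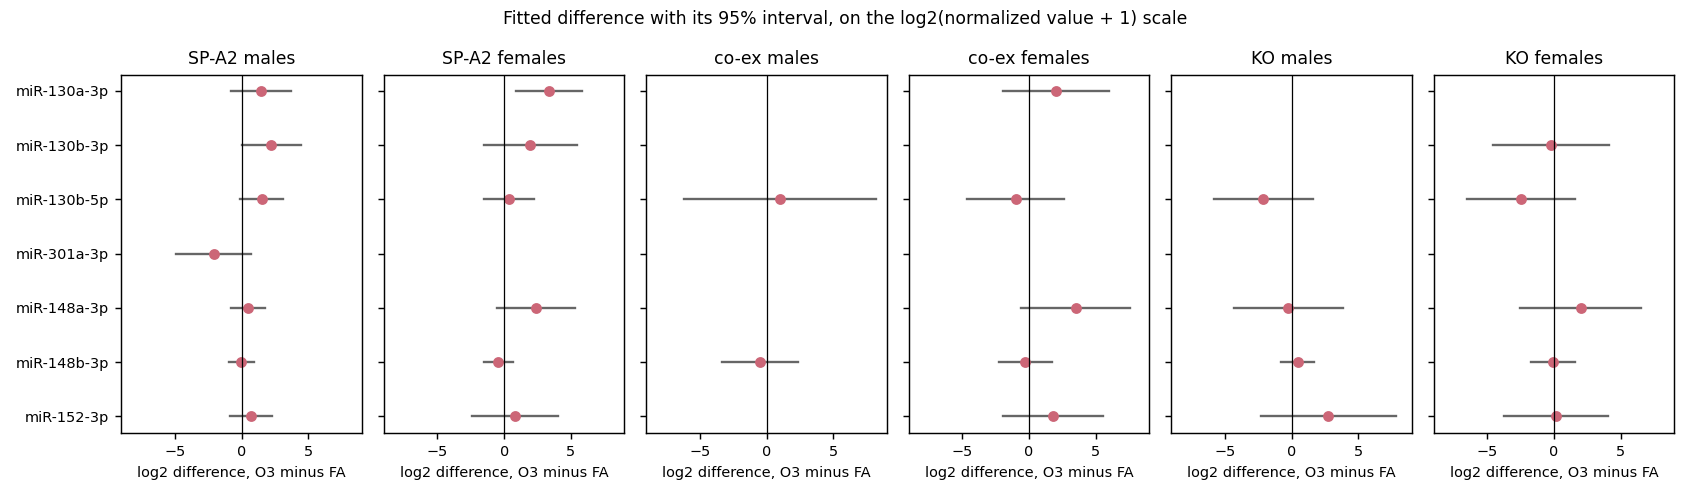
Each panel is 1 table, the horizontal axis gives the fitted log2 difference (O3 minus FA) and each row is 1 member, with the point at the estimate and the line over its 95% interval. The intervals of miR-148b-3p are narrow in the SP-A2 tables (-0.95 to 0.90 in males), and that of miR-130b-5p in co-ex males is the widest (-6.17 to 8.16).

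miR-148b-3p was the most abundant member and the only one with reads in every mouse. Its normalized value ranked 99 of 328 miRNAs by the mean over mice in KO males, 104 of 287 in KO females, 100 of 448 in SP-A2 males, 132 of 373 in SP-A2 females, 113 of 290 in co-ex females and 108 of 234 in co-ex males. In SP-A2 males it was 314, 410 and 555 after FA and 500, 380 and 357 after O3, with overlapping groups (-0.02 ± 0.41, limma adjusted p = 0.981). In SP-A2 females it was 227, 199, 189 and 450 after FA and 126, 240, 231 and 170 after O3 (-0.42 ± 0.49, limma adjusted p = 0.828). Of the 4 FA mice, 3 lay within the range of the O3 mice.

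In co-ex males miR-148b-3p was 131, 422, 536 and 214 after FA and 627, 203 and 64.0 after O3 (-0.48 ± 1.33, limma adjusted p = 0.941). In co-ex females it was 408, 563, 311 and 88.2 after FA and 275, 410, 98.3 and 264 after O3 (-0.28 ± 0.96, limma adjusted p = 0.940). Both co-ex tables had overlapping groups. In KO males it was 481, 306, 230 and 420 after FA and 376, 553, 300 and 824 after O3 (0.46 ± 0.56, limma adjusted p = 0.719). In KO females it was 128, 289, 443 and 434 after FA and 224, 233, 284 and 371 after O3 (-0.09 ± 0.77, limma adjusted p = 0.958). The KO tables overlapped too.

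miR-148a-3p, which differs from miR-148b-3p at 2 bases next to the seed, was lower and more variable. It was listed in all tables except that of co-ex males. In SP-A2 males it was 119, 120 and 58.7 after FA and 139, 113 and 137 after O3 (0.45 ± 0.57, limma adjusted p = 0.748). In SP-A2 females it was 0, 26.9, 14.6 and 107 after FA and 51.7, 62.9, 117 and 89.5 after O3 (2.40 ± 1.35, limma adjusted p = 0.520). Of these FA mice, 3 were below all the O3 mice and 1 was above 3 of them.

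In co-ex females, miR-148a-3p was 14.7 in 1 FA mouse and 0 in the other 3, and 294, 0, 27.2 and 28.8 after O3 (3.49 ± 1.95, 95% interval -0.59 to 7.56, limma adjusted p = 0.501). It had reads in exactly 4 mice of this table, the minimum for being listed, and 3 of them were O3 mice. The mesenchymal and epithelial sums moved with exposure there. In KO males it was 58.9, 17.0, 30.6 and 38.0 after FA and 87.5, 57.6, 123 and 0 after O3 (-0.26 ± 1.87, limma adjusted p = 0.941). The O3 mouse at 0 was replicate 4 (180625 reads), and without it the difference was 1.35. In KO females it was 74.6, 97.3, 0 and 0 after FA and 136, 33.3, 17.9 and 19.6 after O3 (1.99 ± 2.15, limma adjusted p = 0.765).

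miR-152-3p was listed in the same 5 tables, and its fitted difference was above 0 in each, although edgeR and DESeq2 gave estimates below 0 for SP-A2 females (-0.10 and -0.15) and KO females (-0.55 and -0.66). In SP-A2 males it was 83.7, 96.2 and 44.6 after FA and 206, 151 and 50.0 after O3 (0.70 ± 0.71, limma adjusted p = 0.673). In SP-A2 females it was 20.8, 33.1, 117 and 0 after FA and 17.2, 101, 21.8 and 20.1 after O3 (0.84 ± 1.48, limma adjusted p = 0.874). In co-ex females it was 0, 0, 17.1 and 1.24 after FA and 0, 49.8, 0 and 113 after O3 (1.79 ± 1.78, limma adjusted p = 0.776). The groups overlapped in each of these tables.

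In KO males, miR-152-3p was 120, 0, 0.681 and 11.1 after FA and 268, 148, 123 and 0 after O3, a difference of 2.75 ± 2.31 (limma adjusted p = 0.559). The 3 O3 mice with reads were above all FA mice, and the fourth was again the shallow replicate 4. With 1 mouse left out the difference ranged from 1.81 to 4.60, the latter without replicate 4, and that of co-ex females ranged from 0.55 to 2.83. The mesenchymal sums given above moved with exposure in both tables. In KO females it was 20.7, 1.69, 53.7 and 0 after FA and 16.0, 7.80, 0 and 29.9 after O3 (0.13 ± 1.86, limma adjusted p = 0.980).

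Over the 5 tables that listed both, the averaged difference of miR-148a-3p was 1.61 ± 0.76 (95% interval 0.06 to 3.16, unadjusted p = 0.0416, limma adjusted p = 0.174) and that of miR-152-3p was 1.24 ± 0.83 (-0.45 to 2.93, adjusted p = 0.364). Of the 243 miRNAs in this fit 21.4% were called, with a median difference of 0.13, and 0 of the 4 members were, nor by edgeR or DESeq2. This fit too was added after the data were seen. In co-ex females miR-148a-3p had reads in 3 O3 mice and 1 FA mouse, just the minimum of 4 for being listed. It thus entered that table mostly through O3 mice, and its average and calls under other settings are a description. Leaving out 1 of 3 mice, KO female FA replicate 2, KO male O3 replicate 4 or co-ex female O3 replicate 2, brought miR-148a-3p to a call, with adjusted p of 0.0939, 0.0547 and 0.0581. Both O3 mice among these were at 0 for miR-148a-3p, and the FA mouse held the highest FA value of its table. In the same fit miR-148b-3p differed by -0.07 ± 0.27 (-0.62 to 0.47) and miR-130b-5p by -0.74 ± 0.62. Whether the response of miR-148a-3p differs from that of miR-148b-3p was not tested.

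In SP-A2 females, every O3 mouse was above every FA mouse for 3.49% of all miRNAs and for none of the 5 members other than miR-130a-3p. That miRNA, whose only reads were in the 4 O3 mice, could be listed with no other pattern and is not counted. Outside the SP-A2 tables no member did so, where 6.10% of the miRNAs of KO males, 3.14% of KO females, 6.41% of co-ex males and 5.86% of co-ex females did. No table had a member with every O3 mouse below every FA mouse. The share of all miRNAs with that pattern was not counted, so the directions cannot be compared.

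Within a mouse, the reads on members of a family were compared, per base of mature length and on log2(value + 1). miR-148b-3p was above miR-148a-3p in 37 of 38 mice, with a median ratio of 7.24, and above miR-152-3p in 38 of 38, with a median ratio of 9.87. The ratios are largest where the other member had no reads, which was so for miR-148a-3p in 8 of 38 mice and for miR-152-3p in 9 of 38. In SP-A2 males, where neither was at 0, the median ratios were 3.36 and 3.78. miR-148a-3p and miR-152-3p had no fixed order, with the first higher in 18 mice, the second in 16 and both at 0 in 4. In KO male O3 replicate 3, counted for the second, the values were equal and only the mature length differed.

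The strands of the miR-130b hairpin were compared in the same way in 22 mice. miR-130b-5p was above miR-130b-3p in 20 of 22, with a median ratio of 3.22, and in all 14 SP-A2 mice. The median ratio was 4.89 after FA and 2.95 after O3 in SP-A2 males, 18.8 and 2.83 in SP-A2 females and 5.72 and 1.65 in KO females. These ratios too are extreme where a strand had no reads. miR-130b-3p was at 0 in 2 FA mice and 1 O3 mouse of SP-A2 females, and in 1 FA and 1 O3 mouse of KO females. The log2 ratio in KO females ran from -0.61 to 6.41 after FA and from -3.70 to 4.24 after O3. miR-130b-3p and miR-130a-3p, with the same seed, had no fixed order. In SP-A2 males the median ratio of the first to the second was 0.46 after FA and 1.04 after O3, and the first was higher in 1 of 3 FA mice and in 3 of 3 O3 mice. In SP-A2 females the log2 ratio ran from -4.89 to 4.51, with the first higher in 4 mice, the second in 2 and both at 0 in 2. Adapter ligation in library preparation favours some sequences, so a ratio between 2 miRNAs is a ratio of reads and not of molecules, and these ratios carry no test.

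**Figure D3:**
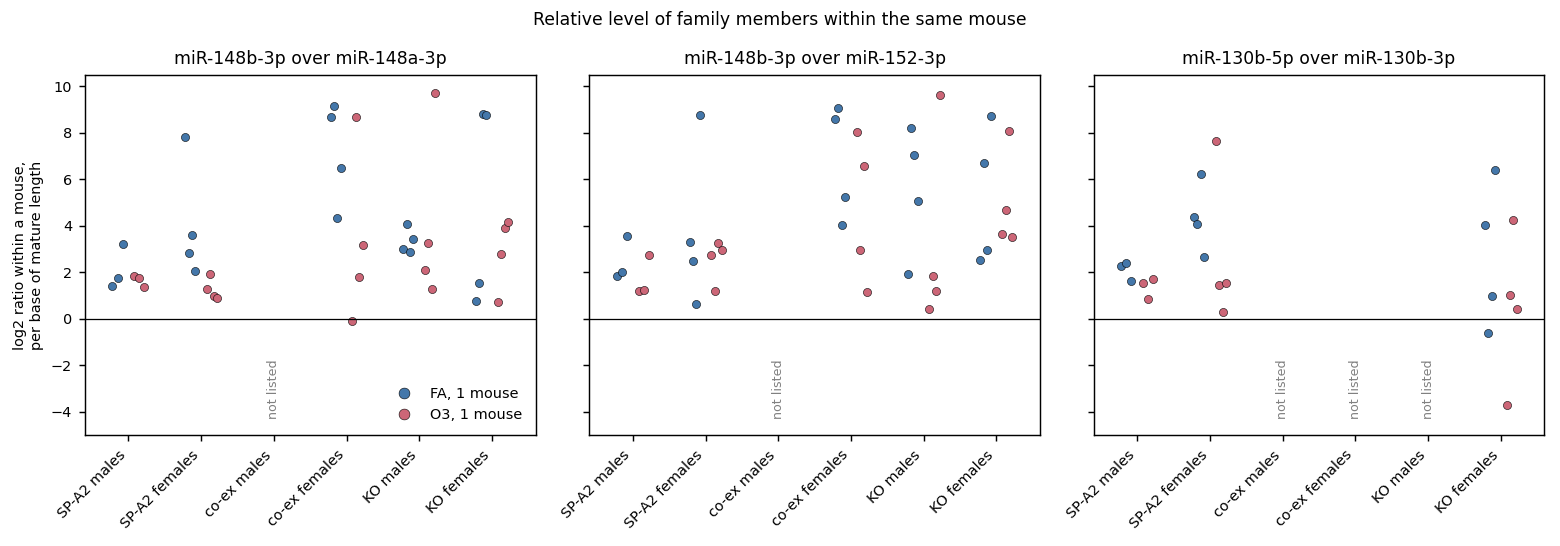
Each point is 1 mouse, FA in blue and O3 in red, the horizontal axis gives the tables and the vertical axis the log2 ratio of 2 members within the mouse, per base of mature length, with a line at equal levels. miR-148b-3p is above miR-148a-3p in 37 of 38 mice and above miR-152-3p in 38 of 38, and miR-130b-5p is above miR-130b-3p in 20 of 22.

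The levels of the 2 members listed everywhere were set across the 12 groups as TMM-scaled CPM. This is a scaled share of the recovered reads of a mouse on the 206 miRNAs shared by all tables. miR-148b-3p had a median of 352 CPM over 45 mice, from 59.3 to 837. By group mean it was highest in KO males after O3 (508 ± 251, SD, n = 4) and SP-A2 males after FA (480 ± 148, n = 3) and lowest in SP-A2 females after O3 (220 ± 79.2, n = 4). In between followed KO male FA (457), SP-A2 male O3 (426), KO female FA (409), co-ex female FA (407), co-ex male FA (377), SP-A2 female FA (348), KO female O3 (334), co-ex female O3 (296) and co-ex male O3 (285). All 11 pairs of neighbours in this order had overlapping ranges, and so had the first and the last group.

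miR-130b-5p had a median of 81.1 CPM, from 0 to 491. Its group means ran from 175 ± 140 in KO females after FA (n = 4), 171 ± 215 in co-ex females after FA (n = 4) and 162 ± 255 in co-ex males after O3 (n = 3) to 46.3 ± 26.7 in SP-A2 males after FA (n = 3) and 41.5 ± 37.0 in KO females after O3 (n = 4). Here too all 11 neighbouring ranges overlapped. The standard deviation exceeded the mean in 5 of the 12 groups, so the order is loosely fixed.

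**Figure D4:**
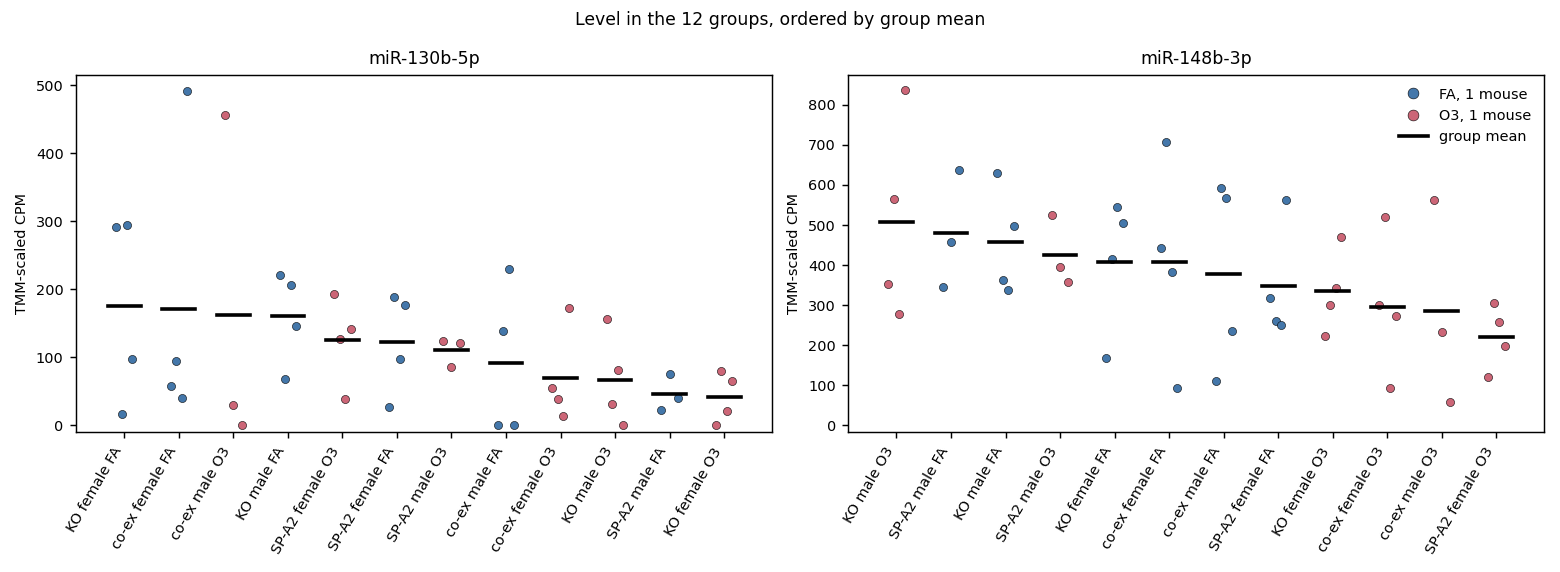
The horizontal axis gives the 12 groups in the order of their mean and the vertical axis the TMM-scaled CPM of each mouse, FA in blue and O3 in red, with a bar at the group mean. For both members every pair of neighbouring groups overlaps, and miR-148b-3p spans 59.3 to 837 CPM while miR-130b-5p spans 0 to 491.

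Between genotypes, over sexes and exposures, the level of miR-148b-3p differed by -0.22 ± 0.37 for SP-A2 minus KO, -0.58 ± 0.36 for co-ex minus KO and 0.36 ± 0.37 for SP-A2 minus co-ex, on log2(CPM + 1). None was called by limma (adjusted p = 0.772, 0.349 and 0.482). For miR-130b-5p the differences were 0.67 ± 0.89, -0.56 ± 0.87 and 1.23 ± 0.91 (limma adjusted p = 0.712, 0.732 and 0.289), and edgeR gave -0.00079, 0.30 and -0.30, the opposite sign in each. Of the 206 miRNAs, 7.77%, 8.74% and 49.5% were called in these contrasts, and the median difference over them was 0.33, -0.43 and 0.76. Neither member was among the 102 miRNAs called for SP-A2 against co-ex, 78 higher and 24 lower.

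Without co-ex male O3 replicate 1, which held the highest miR-130b-5p value of its table, limma called miR-130b-5p higher in SP-A2 than in co-ex (1.85, adjusted p = 0.0943). With all mice, limma called 49.5% of the 206 miRNAs in this contrast, and edgeR gave -0.30 for miR-130b-5p. The share of all miRNAs called without this mouse is not given here. For levels, genotype and any batch by table cannot be told apart. Males and females differed by 0.31 ± 0.30 for miR-148b-3p and -0.72 ± 0.73 for miR-130b-5p (male minus female, limma adjusted p = 0.754 for both), where 0% of all miRNAs were called, 24 of the 206 had an unadjusted p below 0.05, and edgeR called 0.

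Other strands and relatives of the families were looked up by name. Of 11 (miR-130a-5p, miR-130c, miR-301a-5p, miR-301b-3p, miR-301b-5p, miR-721, miR-454-3p, miR-454-5p, miR-148a-5p, miR-148b-5p and miR-152-5p), only miR-148b-5p was listed, in SP-A2 males. It was 27.9, 0 and 32.9 after FA and 9.14, 6.57 and 0 after O3. The groups overlapped, and limma did not call it (log2 difference -1.22).

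A list of 16 miRNAs known from myeloid differentiation, macrophage activation or the regulation of PPAR-gamma gave the setting for these values. In SP-A2 males 15 of them were tested, with 0 called higher and 1 lower, and in SP-A2 females 15, with 0 higher and 1 lower. Of all miRNAs, limma called 0.670% in SP-A2 males and 1.07% in SP-A2 females. At an unadjusted p below 0.05 were 3 and 4 of the 15, against 17.6% and 12.3% of all miRNAs. Neither KO table (15 tested in each) had a call in either direction, nor had co-ex females (15 tested) and co-ex males (11 tested), with 2 in KO males, 1 in KO females and 0 in both co-ex tables at an unadjusted p below 0.05. Of all miRNAs, limma called 5.18% in KO males, 0% in KO females, 1.38% in co-ex females and 0% in co-ex males. In SP-A2 males miR-142a-3p, a miRNA of all blood cells, fell by 3.28 ± 0.40 (limma adjusted p = 0.00435). The summed value of the 3 blood cell miRNAs overlapped there, from 7474 to 10663 after FA and from 3894 to 9956 after O3. In SP-A2 females miR-155-5p, a miRNA of macrophage activation, fell by 2.42 ± 0.49 (limma adjusted p = 0.0454). This call was lost with the replicate block (adjusted p = 0.109) and on leaving out FA replicate 2, 3 or 4 or O3 replicate 3 (adjusted p = 0.249, 0.204, 0.107 and 0.214), and in SP-A2 males miR-155-5p differed by 2.64 (limma adjusted p = 0.118). For the response of males minus females over both SP-A2 tables, limma called 1 of 15 list members higher and 0 lower. That was the only call among the 354 miRNAs of the fit (0.282%).

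Averaged over the 6 tables, 2 of the 11 list members tested rose, in a fit that called 25.7% of all miRNAs with a median difference of 0.19. They were miR-222-3p (0.57 ± 0.23, limma adjusted p = 0.0683) and miR-27b-3p (0.55 ± 0.16, limma adjusted p = 0.0142), which is known to target PPAR-gamma. With median-ratio rescaling miR-222-3p was no longer called (adjusted p = 0.158), nor was it on leaving out any 1 of 10 mice (adjusted p up to 0.115), which were co-ex female O3 replicate 4, co-ex male FA replicate 1, co-ex male O3 replicates 1 and 2, KO female O3 replicate 4, KO male O3 replicate 3, SP-A2 female O3 replicates 1 and 3, SP-A2 male FA replicate 2 and SP-A2 male O3 replicate 3. For these 2 miRNAs edgeR called neither (adjusted p = 0.284 and 0.203) and DESeq2 called both (0.0829 and 0.0290).

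The miRNAs whose values were most like those of the 2 widely listed members were found over all 45 mice, after centring log2(value + 1) on the mean of each table, among 205 miRNAs. For miR-130b-5p they were miR-421-3p (Pearson r = 0.53), miR-331-3p (0.49) and miR-671-3p (0.43). For miR-148b-3p they were miR-532-5p (0.41), miR-16-5p (0.35) and miR-365-2-5p (0.34). miR-130b-5p and miR-148b-3p themselves had r = 0.23. The mice share tables, exposures and differences in depth, so these values are a description only.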

How the data were processed

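Small RNA libraries (NEXTflex Small RNA v3, Illumina, 50 cycles) were made from AM of 45 mice. The submitters' processing notes name CASAVA and edgeR, the methods also name TCC, and the names of the tables mention DESeq2. The aligner, miRNA reference and build are not given in the sources used here. The authors deposited 6 tables of normalized signal, in which the reads on a miRNA are divided by a factor of the mouse. The deposited p-value, q-value and rank of FA against O3 were not used. In each mouse 100% of values were whole multiples of 1 step (tolerance 1e-04), which gave whole reads.

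Each mouse was 1 replicate, grouped by its labels. O3 and FA were compared by limma 3.58.1 (R 4.3.3, trend) on log2(value + 1), at an FDR of 0.1. Fold changes on this scale understate the change of low miRNAs. Levels across tables were compared on log2(TMM-scaled CPM + 1). Other settings tried were an FDR of 0.05, a pseudocount of 0.1 or 10, a minimum value of 10, a replicate block, rescaling, edgeR 4.0.16, DESeq2 1.42.0 and each mouse left out. The fits were tested on simulated data. All members were named whatever their values, beside the relatives, the list of 16 and the 3 most similar miRNAs. The members and lists were chosen with earlier results of these data known. The limma p-values set a difference against the spread between these mice, moderated over the miRNAs of the fit.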

Additional observations from a re-analysis of the deposited data

Results flagged for a closer look

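Of 41 groups of 4 mice in which a member was listed with differing values, 10 held a mouse apart from the other 3 by Dixon's criterion at its 95% critical value, a criterion that chance passes in about 1 of 20 groups. Most of these members have few reads, and a single mouse with reads among mice near 0 passes easily. For miR-130a-3p, co-ex female FA replicate 2 was at 58.6 and the other 3 at 0. For miR-130b-3p, KO female FA replicate 3 was at 119, with the others between 0 and 18.6. For miR-130b-5p, co-ex female FA replicate 4 was at 463, with the others between 33.0 and 74.9. For miR-148a-3p the mice apart were KO female O3 replicate 1 (136, others 17.9 to 33.3), co-ex female FA replicate 3 (14.7, others 0) and co-ex female O3 replicate 1 (294, others 0 to 28.8). For miR-148b-3p, SP-A2 female FA replicate 4 was at 449.8, with the others between 189 and 227. For miR-152-3p they were KO male FA replicate 1 (119.7, others 0 to 11.1), SP-A2 female O3 replicate 2 (101, others 17.2 to 21.8) and co-ex female FA replicate 3 (17.1, others 0 to 1.24). Groups of 3 mice were not examined in this way. No difference in response between sexes or genotypes was called for a member.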

How the results depend on the processing

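None of the 69 values of a member in a comparison was called, and of their 2153 values under other settings, 2079 kept their direction and stayed uncalled, 9 became calls and 65 changed direction. The number of members called stayed at 0 in 18 of 21 comparisons under every setting. It was 1 for both SP-A2 tables with edgeR, with DESeq2 and with a pseudocount of 0.1 (miR-130a-3p, which entered the female table only through its O3 mice), and ranged from 0 to 1 with 1 mouse left out. With 1 mouse left out it also ranged from 0 to 1 over 5 tables (miR-148a-3p) and for the level in SP-A2 against co-ex (miR-130b-5p). The values that changed direction were uncalled under both settings, and the cause was not tested.

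On recovered reads, edgeR and then DESeq2 gave -0.10 and -0.15 for miR-152-3p in SP-A2 females, -0.55 and -0.66 in KO females and 0.94 and 0.97 for its male minus female response in SP-A2. They gave 0.44 and 0.58 for miR-148a-3p in KO males and 0.050 and 0.15 for the male minus female response of miR-148b-3p in co-ex. With edgeR alone miR-148a-3p was -0.029 in KO females, and the level of miR-130b-5p differed by -0.00079 (SP-A2 minus KO), 0.30 (co-ex minus KO) and -0.30 (SP-A2 minus co-ex). A pseudocount of 10 gave 0.32 for miR-148a-3p in KO males, -0.076 for miR-152-3p in KO females and 0.45 for its male minus female response in SP-A2, and one of 0.1 gave -0.44 for that of miR-130b-3p.

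With 1 mouse left out, the difference of miR-148b-3p ranged from -0.23 to 0.18 in SP-A2 males, -1.30 to 0.34 in co-ex males, -0.83 to 0.13 in co-ex females, -0.49 to 0.11 in KO females and -0.18 to 0.011 over 5 tables. That of miR-130b-5p ranged from -0.25 to 0.85 in SP-A2 females and -1.21 to 3.29 in co-ex males, that of miR-152-3p from -0.53 to 1.76 in SP-A2 females and -0.84 to 1.15 in KO females, that of miR-148a-3p from -0.97 to 1.35 in KO males and that of miR-130b-3p from -1.50 to 0.90 in KO females. Male minus female responses ranged from -0.99 to 1.91 (KO) and -0.22 to 4.28 (co-ex) for miR-130b-5p, and from -1.02 to 0.61 (co-ex) and -0.023 to 0.52 (3 genotypes) for miR-148b-3p. Within both SP-A2 tables they ranged from -1.02 to 0.90 for miR-130b-3p and from -1.06 to 1.23 for miR-152-3p. The SP-A2 minus co-ex response ranged from -0.22 to 2.03 for miR-130b-5p and from -0.25 to 0.56 for miR-148b-3p, and the co-ex minus KO level of miR-130b-5p from -1.11 to 0.018.

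Same-numbered FA and O3 mice did not deviate together (22 pairs, r from -0.14 to 0.27, 6 over 0.1), so the numbers were not taken to pair the mice. With the replicate block no member was called, and the difference of miR-130b-5p in co-ex males became -0.21. The count of all miRNAs called moved with the tool, from 3 by limma to 54 by DESeq2 in SP-A2 males, 4 to 26 in SP-A2 females, 0 to 5 in co-ex males, 4 to 14 in co-ex females, 17 to 41 in KO males and 0 to 2 in KO females. All members except miR-148b-3p had 0 reads in some mice, among them miR-130a-3p and miR-148a-3p in co-ex female O3 replicate 2, a mouse with 2274203 reads, and the part of depth in these zeros was not tested.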
